A study of Mus musculus with 7 samples.

Results

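Replicate 1 and replicate 2 cultures of newborn mouse hippocampus were compared day by day, with 3 libraries on each side: DIV3, DIV5 and DIV7 (days in vitro) of replicate 1 against the same days of replicate 2. These are 6 of the 7 libraries of the series, the DIV1 library having no second replicate. They hold 24654 cell barcodes, of which 22613 had at least 500 detected genes and at most 10% of their UMIs (unique molecular identifiers, 1 per captured transcript) from mitochondrial genes, 12399 in replicate 1 and 10214 in replicate 2. All 6 libraries come from hippocampi of P0 mice, dissociated with trypsin, grown without a labelled treatment on poly-D-lysine in medium with serum and B-27 supplement, and lifted again with trypsin for droplet sequencing (10x Genomics, single-cell 3' libraries). The labels give no strain, genotype, sex, litter, preparation date or sequencing batch, and do not say whether the libraries of 1 replicate number come from 1 preparation of cells. A difference between the replicate numbers therefore cannot be told apart from one of animal, preparation, handling or sequencing run, and the p-values rest on how these 6 libraries scatter once the mean of each day is removed.

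A culture of this kind holds neurons together with the glia that divide and mature beside them: radial glia that turn into astrocytes, ciliated ependymal-like cells, microglia, oligodendrocyte precursors and meningeal fibroblasts. Astrocytes and microglia respond to injury, infection or handling by switching on reactive programmes. Among these are the interferon response, in which secreted interferons act on a common set of antiviral and antigen-presentation genes, and the acute-phase response driven by NF-kB. Immediate early genes such as Fos and Nr4a1 are transcribed within minutes of a stimulus, dissociation included.

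The median number of UMIs per kept cell was higher in replicate 1 on each day. It was 20267 against 14294 on DIV3, 13184 against 8947 on DIV5 and 12487 against 10105 on DIV7. Neurons had the opposite order, with medians of 8581 and 10280, 10780 and 13580, and 12430 and 15980 UMIs in replicates 1 and 2. Numbers of reads were not compared. The limit on mitochondrial UMIs removed 17.7% of the barcodes of DIV7 replicate 1 and 2.91% to 5.90% of the others. Pairs of libraries shared 12 to 34 barcodes. The doublet caller marked 127 barcodes (0.515%), too few to be relied on, so no cell was removed as a doublet in the main values. DIV3 replicate 1 stood apart in a further respect: Ddx3y, a Y-linked gene, counted 0.0104 CPM (UMI counts of the summed library scaled to the same total in each) there, against 43.7 CPM in DIV3 replicate 2 and 13.1 to 51.4 CPM in the other libraries. The cells of that library thus carried next to no Y-linked transcript while those of the other 5 did, and the order of the replicates in Ddx3y was not the same on the other days (29.9 and 20.0 CPM on DIV5, 13.1 and 51.4 CPM on DIV7). Xist, transcribed from the inactive X of female cells, counted 899.5 and 528, 572 and 1286, and 839 and 555 CPM. Because of this, results are also given without DIV3.

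Cells were grouped into lineages by clustering all 6 libraries together and naming clusters from marker genes. Genes of most tested lists, such as the interferon, immediate early and cell-cycle lists, were left out of the clustering. The astrocyte maturation, radial glia, homeostatic microglia, motile cilium, extracellular matrix and synaptic lists were kept, except for genes also on a list left out. Results on the kept lists are therefore not independent of how the lineages were drawn. Clustering each library alone put 82.6% of cells in the same lineage, and 96.4% of those named both times. The share of ciliated cells was higher in replicate 1 on each day, and the share of microglia or macrophages was higher in replicate 2. Ciliated cells made up 3.11% of DIV3 replicate 1 and 2.15% of DIV3 replicate 2, 11.9% and 4.84% on DIV5, and 26.3% and 13.5% on DIV7. Their mean share was 13.8% ± 11.7 in replicate 1 and 6.84% ± 5.94 in replicate 2 (SD, n = 3 each), a mean difference of 6.93 points ± 5.91 (SD over 3 days). The share rose with day in both replicates, so the sides overlap over days while replicate 1 led within each. Microglia or macrophages made up 0.894% and 2.15% on DIV3, 1.33% and 4.43% on DIV5, and 3.45% and 6.60% on DIV7 in replicates 1 and 2. Their mean share was 1.89% ± 1.37 and 4.39% ± 2.23, a difference of -2.50 points ± 1.08.

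An exact sign-flip permutation test over the 3 days, two-sided, gave p = 0.25 for both lineages, the smallest value 3 days allow. edgeR on the cell numbers with day as a block gave a log2 ratio of 0.94 (SE 0.37, adjusted p = 0.0655) for ciliated cells and -1.31 (SE 0.46, adjusted p = 0.0655) for microglia or macrophages, so neither passed the threshold of 0.05. Under a stricter cell filter (1000 genes, 5% mitochondrial UMIs), which keeps 566 cells of DIV7 replicate 1, the mean difference in the ciliated share was 0.0913 points and the DIV7 difference was -5.31 points. The library with the higher ciliated share on DIV7 was also the one with the higher mitochondrial share, and the part this plays was not tested.

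Neurons had the higher share in replicate 1 on each day (21.1% and 20.2%, 16.7% and 15.9%, 13.4% and 3.99%), with a gap of 9.42 points on DIV7 and under 1 point on the other days. Their mean difference was 3.68 points ± 4.97 and fell to 0.815 points without DIV7. Under the stricter cell filter the mean was 1.91 points and the DIV5 difference was -2.44 points. With lineages from each library alone the differences were 8.64 points on DIV3, 1.64 on DIV5 and 3.93 on DIV7. Neuroblasts or intermediate progenitors, the dividing precursors of neurons, were higher in replicate 2 on each day, with day differences of -0.277, -3.55 and -0.165 points and a mean of -1.33 points (log2 ratio -1.65, SE 0.61, edgeR adjusted p = 0.0655). The cell numbers behind them were 22 and 20 on DIV3, 42 and 175 on DIV5, and 1 and 7 on DIV7. With lineages from each library alone the type was named only on DIV5, with a difference of -5.85 points. Astroglia showed no common direction, at 49.9% and 48.5%, 45.8% and 44.1%, and 40.7% and 54.3% (exact permutation p = 1). Oligodendrocyte-lineage and fibroblast shares also changed direction between days (exact permutation p = 0.5 and 0.75).

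**Figure D1:**
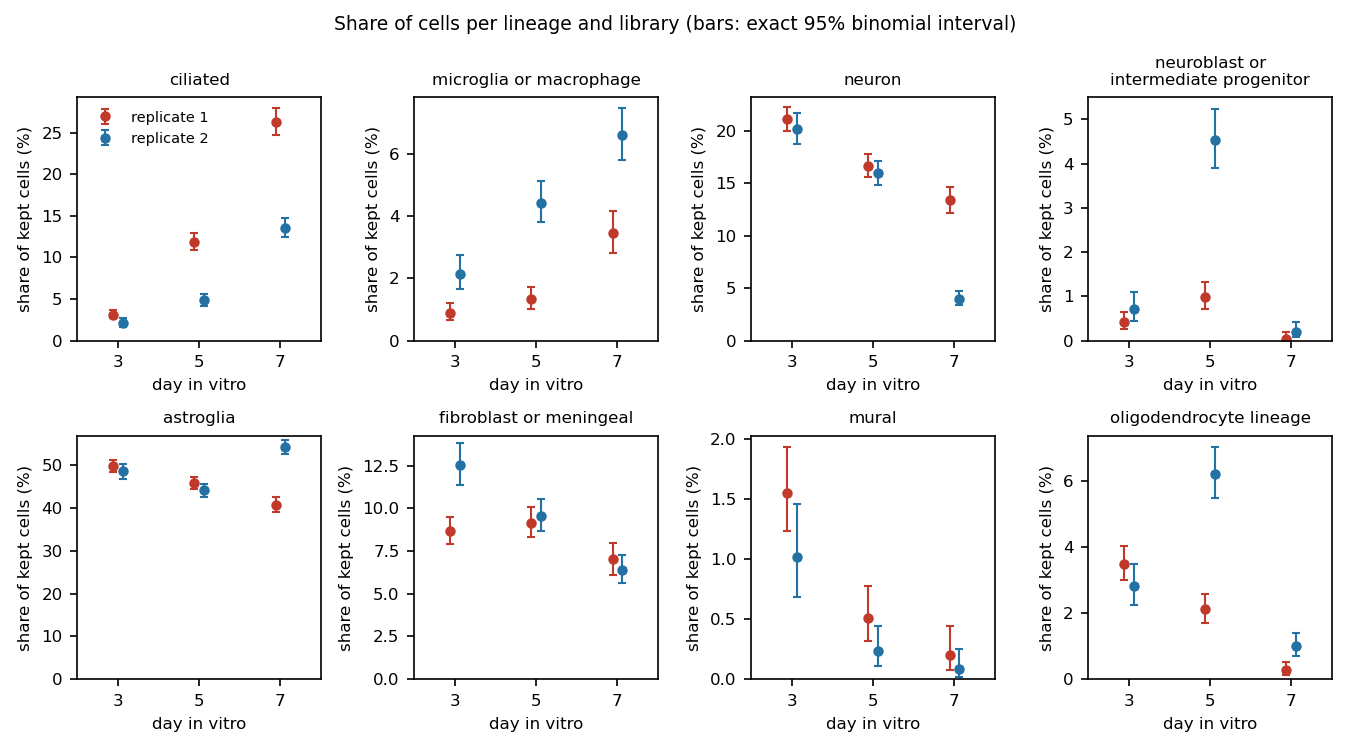
Share of kept cells (percent, vertical axis) in each lineage by day in vitro (horizontal axis), 1 point per library with its exact 95% binomial interval, which covers counting error only; red is replicate 1 and blue replicate 2. Ciliated cells are higher in replicate 1 on all 3 days and microglia or macrophages higher in replicate 2, while astroglia part only on DIV7.

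The markers of these lineages in the whole-library sums followed the shares. Clusters were named from such markers, and motile cilium genes were kept in the clustering, so the counts below restate the shares. In such sums fewer cells of a type and less RNA per cell cannot be told apart. Of 21 microglial markers 20 were higher in replicate 2 on all 3 days, where 19.6% of the 16750 genes tested were, and 23.2% were higher in replicate 1 on all 3. C1qa, which encodes a chain of the complement starter C1q, counted 19.4 and 69.9 CPM on DIV3, 39.5 and 181 CPM on DIV5, and 122 and 334 CPM on DIV7 (log2 difference -1.83, SE 0.18, edgeR adjusted p = 0.066). Of 47 motile cilium genes 33 were higher in replicate 1 on all 3 days and 1 in replicate 2, with a median log2 difference of 0.75 against 0.02 over all genes tested. Foxj1, the master regulator of motile cilia, counted 80.8 and 70.6 CPM, 253 and 88.2 CPM, and 368 and 232 CPM on the 3 days. Within ciliated cells Foxj1 showed no such order (481 and 618, 1220 and 1030, 1209 and 1224 CPM; log2 difference -0.04, SE 0.16).

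edgeR's quasi-likelihood test with day as a block called no gene of the whole-library sums and none of the 14536 genes tested in astroglia at an adjusted p under 0.05. At an unadjusted p under 0.05 there were 3053 and 3395 genes, and DESeq2 called 996 and 1170. The unadjusted calls were 9.73% of genes higher in replicate 1 and 8.5% higher in replicate 2 in the whole-library sums, and 11.8% and 11.5% in astroglia. In smaller lineages the same edgeR test called 119 of 12896 genes in neurons (0.651% of genes higher in replicate 1, 0.271% in replicate 2), 280 of 12510 in ciliated cells (1.46% and 0.775%) and 121 of 12473 in fibroblasts or meningeal cells (0.633% and 0.337%). Microglia or macrophages, with 46 to 232 cells a library, had 4 calls among 8834 genes, all higher in replicate 1 (0.0453%). The calls went the same way on all 3 days for 119 of the neuronal genes, 274 of the ciliated and 120 of the fibroblast genes. These counts depend on the days and on the block. Without DIV3, DIV5 or DIV7 in turn, edgeR called 220, 228 and 739 genes in neurons, 1396, 166 and 26 in ciliated cells, 993, 133 and 88 in fibroblasts, and 77, 0 and 242 in microglia. Without day in the model the counts were 2 in neurons, 0 in ciliated cells, 1 in fibroblasts and 2 in microglia, and with lineages taken from each library alone they were 10 in neurons and 63 in fibroblasts.

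Interferon-response genes stood higher in replicate 1 in neurons, ciliated cells, fibroblasts and astroglia, with a list median above 0 on DIV3, DIV5 and DIV7 in each. In neurons 13 of 26 tested members passed edgeR's test higher in replicate 1 and none in replicate 2, with a median log2 difference of 2.00. In ciliated cells 14 of 37 passed, all higher in replicate 1 (median 1.02), and in fibroblasts or meningeal cells 9 of 37, again all in that direction (median 1.65). The low-count filter can admit a member through the libraries where it is high, which can raise such counts and medians. In astroglia no gene passed the adjusted threshold, but 23 of 39 members were higher in replicate 1 on all 3 days and none was higher in replicate 2, against 23.3% and 23.6% of all genes. The list median in astroglia was 2.12 on DIV3, 0.43 on DIV5 and 0.52 on DIV7, so DIV3 carried most of its size. Without DIV3 the interferon members called higher in replicate 1 were 6 of 21 in neurons (0.952% of all genes), 19 of 36 in ciliated cells (5.98%), 21 of 32 in fibroblasts (4.56%) and 18 of 39 in astroglia. In that setting 5 of the 39 in astroglia were called higher in replicate 2; of all astroglial genes 18.6% were called higher in replicate 1 and 17.4% in replicate 2. The list medians without DIV3 were 1.37 in neurons, 0.774 in ciliated cells, 1.13 in fibroblasts and 0.437 in astroglia.

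Several of these genes share a promoter element, the interferon-stimulated response element, and the stretches that hold it are shown for 4 genes that the values below turn on. The core GAAANNGAAA was searched on both strands (TTTCNNTTTC on the other) from 250 bases before to 50 bases after each gene's start, in RefSeq's promoters of build GRCm38.p6, and a match overlapping an earlier one was not counted again. Capitals mark each match, and every stretch is written 5′ to 3′ along the gene's own strand. They lie at chr8:71537568-71537627 (Bst2, minus strand), chr4:156200850-156200921 (Isg15, minus), chr19:34583348-34583441 (Ifit3, plus) and chr2:122147523-122147582 (B2m, plus).
Bst2: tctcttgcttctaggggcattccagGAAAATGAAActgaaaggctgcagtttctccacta
Isg15: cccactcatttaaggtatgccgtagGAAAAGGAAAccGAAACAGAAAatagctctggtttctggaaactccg
Ifit3: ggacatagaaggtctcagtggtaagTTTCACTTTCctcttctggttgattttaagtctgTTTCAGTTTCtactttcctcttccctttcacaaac
B2m: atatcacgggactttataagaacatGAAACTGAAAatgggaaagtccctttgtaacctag

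Over all 32851 promoters 3.443% held the core. Counted by gene, 1079 of all 27025 genes had it in a promoter (3.993%), and of the 30 interferon-response genes whose promoter the set includes, 17 did (56.67%). The core was also in 4 of 16 antigen-presentation genes (25%), 4 of 27 immediate early genes (14.81%) and 1 of 41 cell-cycle genes (2.439%). Among the genes called higher in replicate 1 it was in 10 of 62 in neurons (16.13%), 12 of 135 in ciliated cells (8.889%) and 10 of 50 in fibroblasts (20%). Among those called higher in replicate 2 it was in 1 of 21, 1 of 51 and 0 of 24. Many of the first group are members of the interferon list, so these shares restate its membership, and a match is a stretch of letters, not a measured binding site.

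Bst2 encodes tetherin, a membrane protein that holds budding viruses at the cell surface. In astroglia it counted 963 and 112 CPM in DIV3 replicates 1 and 2, 139.9 and 26.5 CPM on DIV5, and 97.6 and 38.8 CPM on DIV7. Replicate 1 was higher within each day, although DIV3 replicate 2 exceeded DIV7 replicate 1; the log2 difference was 2.29 (SE 0.36, edgeR adjusted p = 0.082), and 1.86 (adjusted p = 0.0478) without DIV3. In ciliated cells Bst2 counted 758 and 117, 139 and 14.1, and 75.7 and 14.0 CPM (log2 difference 2.75, SE 0.19, edgeR adjusted p = 1.27e-06). In fibroblasts it counted 853 and 67.7, 227 and 36.7, and 201 and 43.2 CPM (2.85, SE 0.27, adjusted p = 0.00456). All 3 fibroblast libraries of replicate 1 lay above all 3 of replicate 2. Microglia or macrophages did not follow, at 1075 and 624, 386 and 523, and 978 and 1171 CPM (log2 difference 0.02, SE 0.27).

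Isg15, a ubiquitin-like protein attached to others in infected cells, counted 467 and 34.7 CPM in astroglia on DIV3, 50.2 and 23.8 CPM on DIV5, and 22.6 and 11.4 CPM on DIV7 (log2 difference 1.92, SE 0.61, edgeR adjusted p = 0.154). The gap was widest on DIV3, and without DIV3 the log2 difference was 1.04 (adjusted p = 6.81e-05). Irf7, which amplifies the response, counted 67.3 and 7.23, 13.5 and 5.92, and 9.39 and 6.38 CPM (1.67, SE 0.54, adjusted p = 0.158). Ifit3 changed order: 84.8 and 9.32 CPM on DIV3, 11.9 and 16.9 CPM on DIV5, 12.9 and 16.5 CPM on DIV7, so that its log2 difference of 0.68 became -0.42 (edgeR adjusted p = 0.0313) without DIV3.

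Among the interferon genes called in neurons were Usp18, the protease that removes ISG15, and Oasl2, a relative of the double-stranded-RNA sensors. Oasl2 counted 89.7 and 10.8 CPM on DIV3, 18.3 and 0.845 CPM on DIV5, and 11.0 and 1.87 CPM on DIV7 (log2 difference 3.33, SE 0.28, edgeR adjusted p = 0.000928). Usp18 counted 56.4 and 4.76 CPM on DIV3, 2.80 and 0.241 CPM on DIV5 and 1.49 CPM against no UMI on DIV7 (3.57, SE 0.30, adjusted p = 0.000928), and its call was lost without DIV3 (adjusted p = 0.071). Replicate 1 was higher on each day in both genes. Isg15 in neurons (44.7 and 1.01, 4.63 and 0.604, 2.23 and 0.935 CPM) passed edgeR's test with a log2 difference of 4.34 (SE 0.56, adjusted p = 0.0154), not without DIV3 (adjusted p = 0.0827), with lineages from each library alone (adjusted p = 0.131) or in DESeq2 (adjusted p = 0.106).

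Free RNA from other cells enters droplets that hold a neuron, and its size can be read from astroglial markers, whose median level in neurons was 4.43% to 10.3% of that in the astroglia of the same library. Bst2 stood within that range or near it, at 6.03% to 11.0% of the astroglial level in the 6 libraries, so its neuronal values are at the level of this background. The neuronal values of Isg15 are as well, at 9.57% and 2.91% of the astroglial level on DIV3, 9.23% and 2.54% on DIV5, and 9.85% and 8.21% on DIV7, and its call in neurons is not read as neuronal expression. Oasl2 in neurons was at 127%, 70.9% and 52.7% of the astroglial level in replicate 1 on the 3 days, above that range, and at 95.3%, 6.57% and 12.9% in replicate 2. Of other interferon genes called in neurons, Gbp3 stood at 0% to 15.7% and Ifit1 at 1.58% to 49.5% of the astroglial level. The list's calls in neurons are therefore not all read as neuronal expression. Thinned to 5000 UMIs a cell, 95.3% of DIV3 replicate 1 astroglia and 35.0% of DIV3 replicate 2 astroglia had a Bst2 UMI, and 25.5% and 5.34% of neurons did. On DIV5 these shares were 46.8% and 8.78% of astroglia, and on DIV7 35.4% and 13.4%.

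**Figure D2:**
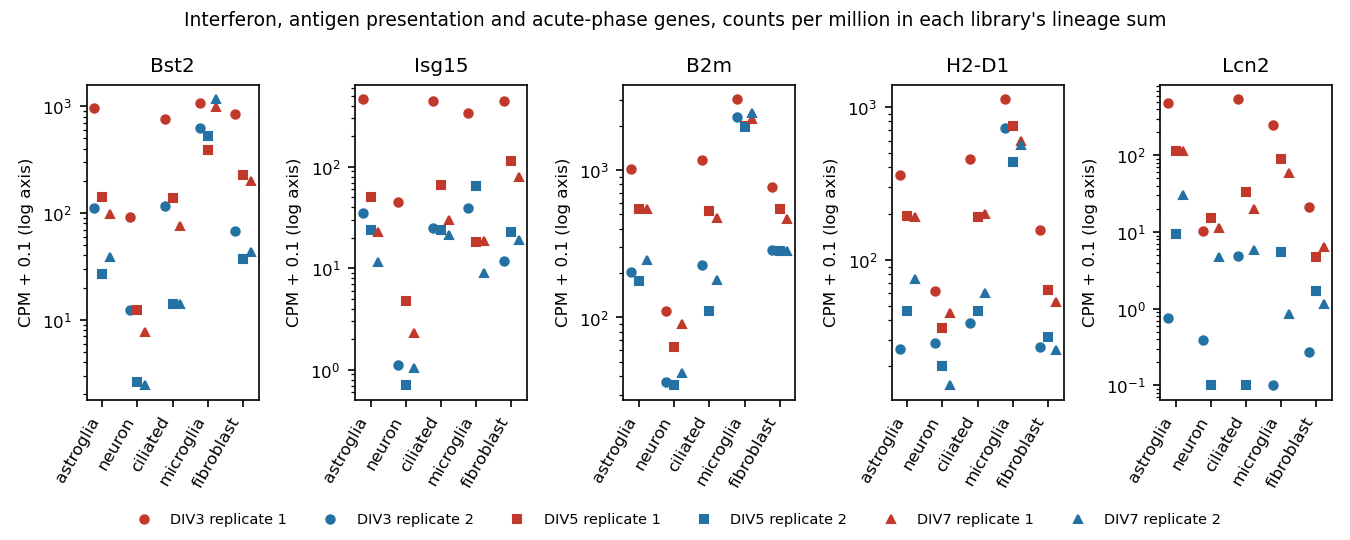
CPM (log axis, 0.1 added) of 5 genes in each lineage's summed UMIs (horizontal axis), 1 point per library, red for replicate 1 and blue for replicate 2, with circles for DIV3, squares for DIV5 and triangles for DIV7. Outside microglia the red symbol of a day lies above the blue symbol of the same shape for all 5 genes, and in microglia Bst2, Isg15 and B2m have no common order.

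Antigen-presentation genes moved alongside. B2m, the light chain of class I molecules, counted 1023 and 204 CPM in astroglia on DIV3, 543 and 176 CPM on DIV5, and 544 and 246 CPM on DIV7 (log2 difference 1.70, SE 0.25, edgeR adjusted p = 0.0785). All 3 libraries of replicate 1 lay above all 3 of replicate 2. It passed the test in ciliated cells (1178 and 226, 526 and 111, 469.9 and 179.5 CPM; 1.99, SE 0.20, adjusted p = 0.000105), in neurons (1.19, SE 0.17, adjusted p = 0.0154, lost with lineages from each library alone at 0.131) and in fibroblasts (1.03, SE 0.17, adjusted p = 0.0288, lost without DIV7 at 0.0576). Neuronal B2m stood at 10.8% to 19.6% of the astroglial level, and microglial B2m at 298% to 1125%. The part of free RNA in the neuronal values was not tested. In microglia or macrophages, where it was most abundant, B2m showed a log2 difference of 0.10 (SE 0.18).

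H2-D1, a class I heavy chain, counted 357 and 25.9, 194 and 46.1, and 191 and 74.0 CPM in astroglia (log2 difference 2.39, SE 0.48, edgeR adjusted p = 0.0928; 1.72 without DIV3, adjusted p = 0.000587). H2-K1, another, counted 410.4 and 42.9, 166 and 31.3, and 209 and 64.5 CPM in ciliated cells (2.34, SE 0.25, adjusted p = 0.00105). Over the list, 9 of 21 members passed higher in replicate 1 in ciliated cells, 2 of 15 in neurons and 1 of 17 in fibroblasts, and none was called higher in replicate 2. Of all genes 1.46%, 0.651% and 0.633% passed higher in replicate 1 in these lineages. In astroglia 11 of 21 were higher in replicate 1 on all 3 days and none in replicate 2, against 23.3% and 23.6% of all genes, with a median of 1.01. Cd74, the class II chaperone, was no part of this: it counted 11.6 and 1.10, 20.8 and 18.0, and 26.2 and 29.5 CPM.

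In microglia or macrophages none of the 35 interferon and 16 antigen-presentation genes tested passed, 1 interferon gene reached an unadjusted p under 0.05 (5.03% of all genes did in that direction and 3.29% in the other), and the interferon median was 1.20 on DIV3, -0.63 on DIV5 and -0.22 on DIV7. Whether the replicate difference itself differs between lineages was tested with an interaction term. Between astroglia and neurons 0 of 15133 genes passed in edgeR (722 at an unadjusted p under 0.05), and between astroglia and ciliated cells 0 of 15066 (831 unadjusted). Between astroglia and microglia 1 of 14232 genes passed (0.00703%), and it was no interferon gene; the smallest adjusted p among the 41 interferon genes was 0.308.

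**Figure D3:**
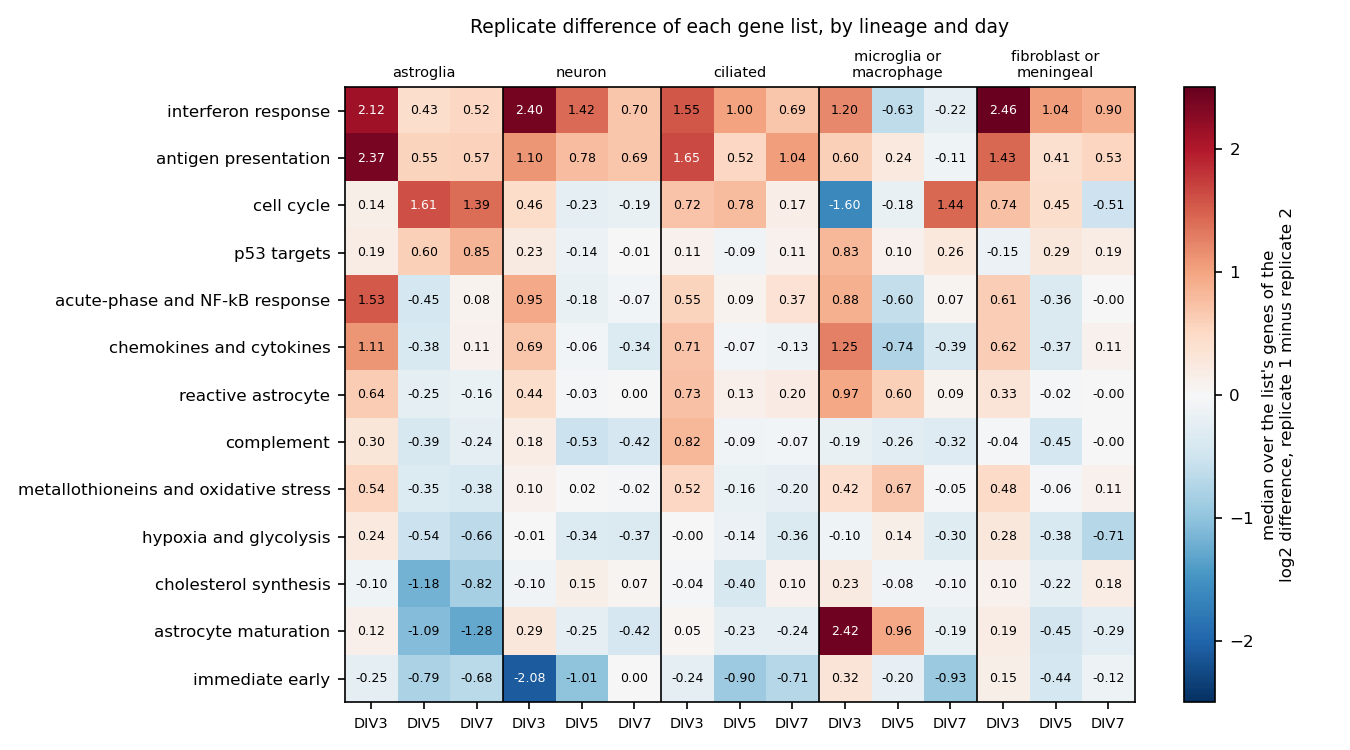
Median log2 difference, replicate 1 minus replicate 2, over the tested genes of each list (rows) by lineage and day (columns), red where replicate 1 is higher. The interferon and antigen-presentation rows are red on every day outside microglia, while the maturation and cholesterol rows of astroglia are near 0 on DIV3 and blue on DIV5 and DIV7.

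The acute-phase and reactive astrocyte lists showed no such common direction. In astroglia 3 of 24 acute-phase and NF-kB genes were higher in replicate 1 on all 3 days and 3 in replicate 2, and of 39 reactive astrocyte genes 10 and 8. The acute-phase median was 1.53 on DIV3, -0.45 on DIV5 and 0.08 on DIV7, and the chemokine median 1.11, -0.38 and 0.11. Both medians were positive on DIV3 and negative on DIV5. Of 25 chemokine and cytokine genes 9 were higher in replicate 1 on all 3 days and 0 in replicate 2, against 23.3% and 23.6% of all astroglial genes; 5 reached an unadjusted p under 0.05 in that direction and none passed edgeR's adjusted threshold.

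Lcn2, a secreted iron-siderophore carrier and a marker of reactive astrocytes, differed widely. In astroglia it counted 475 and 0.648 CPM on DIV3, 112 and 9.39 CPM on DIV5, and 115 and 30.3 CPM on DIV7. All 3 libraries of replicate 1 lay above all 3 of replicate 2, but the size of the gap varied greatly between days, and the log2 difference of 4.24 had an SE of 1.43 (edgeR adjusted p = 0.168; 2.66, adjusted p = 0.206, without DIV3). Thinned to 5000 UMIs, 39.2% of DIV3 replicate 1 astroglia had an Lcn2 UMI and 0.224% of DIV3 replicate 2 astroglia did, against 15.1% and 2.24% on DIV5 and 15.4% and 4.96% on DIV7. Neurons, which are not known for the gene, had it in 4.80%, 1.75% and 1.37% of replicate 1 cells.

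Cp, which encodes the copper-carrying ferroxidase ceruloplasmin, counted 91.0 and 11.3, 60.2 and 16.7, and 56.6 and 18.6 CPM in astroglia (log2 difference 2.15, SE 0.30, edgeR adjusted p = 0.0785; 1.73, adjusted p = 4.09e-06, without DIV3). Steap4, a metalloreductase, counted 48.5 and 7.14, 35.7 and 6.39, and 46.8 and 11.8 CPM in ciliated cells and passed there (2.24, SE 0.22, adjusted p = 0.000105). In both genes every library of replicate 1 was above every library of replicate 2. Saa3, an acute-phase apolipoprotein, had no such order: whole-library sums held 73.2 and 1.15, 14.8 and 83.3, and 46.9 and 6.99 CPM. The chemokine gene Cxcl10 counted 128 and 59.4, 29.0 and 93.7, and 34.4 and 25.8 CPM in astroglia, and Ccl2 226 and 23.5, 48.1 and 61.2, and 86.0 and 29.5 CPM, both with a change of order on DIV5.

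The classical reactive marker Gfap went the other way. Gfap, the intermediate filament of astrocytes, counted 1580 and 1652 CPM on DIV3, 3767 and 9368 CPM on DIV5, and 6602 and 16510 CPM on DIV7 (log2 difference -0.91, SE 0.29, edgeR adjusted p = 0.155). The replicates were level on DIV3 and replicate 2 was higher afterwards (-1.31, adjusted p = 2.28e-05, without DIV3). Vim, the filament of immature astroglia, was higher in replicate 1 on each day, at 2205 and 1356, 1568 and 1135, and 2059 and 1736 CPM (0.47, SE 0.15, adjusted p = 0.153).

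Other genes known from reactive or stressed astrocytes did not share one order in the astroglia of these libraries. Serpina3n, a secreted protease inhibitor, counted 50.5 and 19.7, 53.5 and 128, and 123 and 309 CPM. C3, the central complement component, counted 14.9 and 0.149, 25.4 and 15.1, and 84.7 and 94.2 CPM. Both were higher in replicate 1 on DIV3 and in replicate 2 on DIV7. Mt1, a metal-binding metallothionein, was higher in replicate 2 on each day, at 6743 and 7238, 11860 and 16480, and 15100 and 31110 CPM (log2 difference -0.54, SE 0.21, edgeR adjusted p = 0.204). Wisp2, a secreted CCN-family protein, counted 135 and 143 CPM on DIV3, 249 and 94.8 CPM on DIV5, and 259 and 68.5 CPM on DIV7, so that replicate 1 was higher once DIV3 was past (1.08, SE 0.40, adjusted p = 0.187; 1.66, adjusted p = 3.08e-05, without DIV3). The heat-shock gene Hspa1a stayed between 1.89 and 6.54 CPM in all 6 libraries.

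Genes of astrocyte maturation were lower in replicate 1 astroglia on DIV5 and DIV7, and genes of the cell cycle were higher. On those 2 days alone edgeR called 5097 of 14164 genes, 18.6% of genes higher in replicate 1 and 17.4% higher in replicate 2, against 0 with DIV3 included. Of 37 maturation genes 33 were called higher in replicate 2 and 1 in replicate 1, of 27 cholesterol-synthesis genes 25 and 0, and of 49 cell-cycle genes 0 and 48. With all 3 days, 15 of 37 maturation genes and 15 of 27 cholesterol genes were higher in replicate 2 on every day, and 33 of 49 cell-cycle genes were higher in replicate 1. Of all astroglial genes 23.6% were higher in replicate 2 on every day and 23.3% in replicate 1. The day medians show where this arises: -1.09 and -1.28 on DIV5 and DIV7 against 0.12 on DIV3 for maturation, and 1.61 and 1.39 against 0.14 for the cell cycle. A fit on 2 days has 1 residual degree of freedom among samples, and its count was chosen for printing after DIV3 had been seen to differ.

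Slc1a2, the main astrocytic glutamate transporter, counted 106 and 86.6 CPM on DIV3, 302 and 1187 CPM on DIV5, and 457 and 2066 CPM on DIV7 (log2 difference -1.33, SE 0.53, edgeR adjusted p = 0.21; -2.07, adjusted p = 1.9e-06, without DIV3). Replicate 2 was the higher on DIV5 and DIV7 and the lower on DIV3. Aldoc, the astrocytic aldolase, showed the same course, with 129 and 133, 191 and 673, and 256 and 928 CPM (-1.26, SE 0.40, adjusted p = 0.154). Gja1, the gap-junction protein connexin 43, was lower in replicate 1 already on DIV3: 79.6 and 149.7, 227 and 412, and 388 and 821 CPM (-0.95, SE 0.13, adjusted p = 0.0785).

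Scd2, which desaturates fatty acids for new membrane lipid, counted 385 and 671, 1160 and 3254, and 1481 and 3553 CPM (log2 difference -1.18, SE 0.18, edgeR adjusted p = 0.0785). Hmgcs1, an early enzyme of cholesterol synthesis, counted 245 and 322, 326 and 945, and 319 and 572 CPM (-0.92, SE 0.24, adjusted p = 0.121). Both were higher in replicate 2 on all 3 days. Vegfa, a hypoxia-inducible growth factor, counted 9.88 and 17.4, 9.68 and 37.6, and 9.05 and 38.2 CPM, so the 3 libraries of replicate 1 stayed under 10 CPM while replicate 2 stood above 17 (-1.62, SE 0.28, adjusted p = 0.0901). In the fit on DIV5 and DIV7 alone, 20 of 29 hypoxia and glycolysis genes were called higher in replicate 2 and 3 in replicate 1. Of all astroglial genes, 17.4% and 18.6% were called in these directions in that fit, which has the limits given above.

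Mki67, a protein of dividing nuclei, counted 109.9 and 95.9 CPM in astroglia on DIV3, 111 and 22.7 CPM on DIV5, and 64.0 and 18.5 CPM on DIV7 (log2 difference 1.42, SE 0.42, edgeR adjusted p = 0.14; 2.05, adjusted p = 5.41e-06, without DIV3). Thinned to 5000 UMIs, 27.0% and 25.4% of astroglia had a Mki67 UMI on DIV3, 27.9% and 5.63% on DIV5, and 17.8% and 4.13% on DIV7; unthinned, the shares were 48.3% and 42.4%, 40.7% and 7.87%, and 25.7% and 6.55%. The share in DIV5 replicate 2 was below that in DIV7 replicate 1. Cdkn1a, the p53-induced cell-cycle inhibitor p21, was nevertheless also higher in replicate 1 on each day, at 296 and 172, 250.5 and 73.1, and 357 and 181 CPM (1.17, SE 0.23, adjusted p = 0.0923). Of 25 p53 targets 15 were higher in replicate 1 on all 3 days and 1 in replicate 2, against 23.3% and 23.6% of all astroglial genes, and none passed.

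The astroglial clusters divide along the same lines. A cluster led by Ntsr2, Slc1a2 and Aqp4 held 8.68% of replicate 1 and 27.0% of replicate 2 astroglia on DIV5, and 13.5% and 36.4% on DIV7. One led by Top2a held 38.4% and 8.22% on DIV5 and 25.8% and 6.76% on DIV7, and it also held 33.3% of DIV3 replicate 2. A cluster led by Lcn2, Igfbp3, Ifit3 and Isg15 held 49.2% of DIV3 replicate 1 astroglia and at most 2.74% of those of any other library. One led by the mitotic genes Cdca8, Cdc20 and Cdk1 held 43.7% of DIV3 replicate 1 astroglia, 5.01% of DIV3 replicate 2 and at most 2.69% elsewhere. Since each of these 2 is nearly all of 1 library it may be that library and not a cell state, and these cluster shares are given as a description because the clusters were made from the same counts.

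Gene by gene, the replicate difference of DIV5 astroglia was close to that of DIV7 astroglia and far from that of DIV3. Over 6198 genes of at least 20 CPM the correlation of the 2 day differences was r = 0.87 for DIV5 with DIV7, 0.316 for DIV3 with DIV5 and 0.261 for DIV3 with DIV7. These are correlations across genes, which are not independent, and each day's difference comes from its own 2 libraries. The root-mean-square log2 distance between DIV5 and DIV7 astroglia of replicate 1 was 0.38 and that of replicate 2 was 0.388, while the replicates stood 0.553 apart on DIV5, 0.51 on DIV7 and 0.588 on DIV3. On DIV5 and DIV7, then, astroglia lay closer to those of the other day with the same replicate number than to those of the same day. The same correlation for DIV5 with DIV7 was 0.642 in ciliated cells, 0.604 in fibroblasts, 0.521 in neurons and 0.262 in microglia or macrophages.

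**Figure D4:**
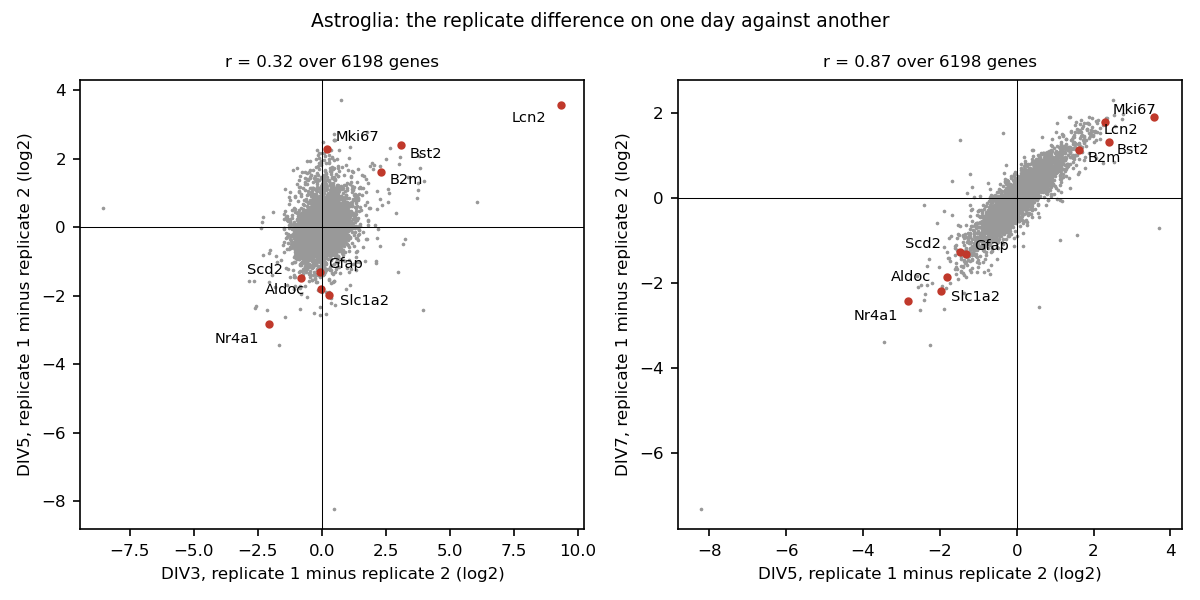
Log2 difference, replicate 1 minus replicate 2, of each astroglial gene of at least 20 CPM: DIV5 against DIV3 on the left and DIV7 against DIV5 on the right, with named genes in red. On the right the genes lie along a line (r = 0.87), with Mki67 and Bst2 at its upper end and Nr4a1 and Slc1a2 at its lower end; on the left Bst2, B2m, Lcn2 and Nr4a1 keep their side while Mki67, Gfap and Slc1a2 lie near 0 on DIV3.

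Many immediate early genes stood lower in replicate 1. Of 33 tested, 17 were higher in replicate 2 on all 3 days in astroglia and 5 in replicate 1, against 23.6% and 23.3% of all astroglial genes, and none passed there. In the interaction test of astroglia against neurons none of the 33 passed (5 at an unadjusted p under 0.05). In ciliated cells 11 passed edgeR's test higher in replicate 2 and 2 higher in replicate 1, in fibroblasts 4 and 1, and in neurons 2 and 1. The shares of all genes called in these directions were 0.775% and 1.46% in ciliated cells, 0.337% and 0.633% in fibroblasts, and 0.271% and 0.651% in neurons. Neurons had a list median of -2.08 on DIV3, -1.01 on DIV5 and 0.00 on DIV7, with 16 members higher in replicate 2 on all 3 days against 18.5% of all genes, and 3 in replicate 1 against 21.3%.

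Nr4a1, an orphan nuclear receptor induced within an hour of stimulation, counted 16.6 and 70.5 CPM in astroglia on DIV3, 24.7 and 175 CPM on DIV5, and 44.5 and 239.8 CPM on DIV7 (log2 difference -2.45, SE 0.18, edgeR adjusted p = 0.0663; -2.62, adjusted p = 7.5e-07, without DIV3). Every library of replicate 2 lay above every library of replicate 1. In ciliated cells it counted 14.4 and 34.5, 16.8 and 131, and 36.8 and 193 CPM and passed (-2.38, SE 0.24, adjusted p = 0.000549). Thinned to 5000 UMIs, 5.84% and 22.7% of astroglia had an Nr4a1 UMI on DIV3, 9.63% and 50.2% on DIV5, and 17.9% and 58.3% on DIV7.

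Fos, a subunit of the AP-1 factor, passed in fibroblasts at 13.1 and 34.2, 59.7 and 228, and 75.5 and 311 CPM (log2 difference -1.79, SE 0.17, edgeR adjusted p = 0.00313) and in ciliated cells (-1.36, SE 0.18, adjusted p = 0.000993). In neurons it counted 183 and 1049, 535 and 1486, and 1129 and 1469 CPM without passing (-1.46, SE 0.43, adjusted p = 0.22). Arc, whose product shapes synaptic receptor traffic, and Fosb passed in ciliated cells with log2 differences of -1.83 (SE 0.24, adjusted p = 0.000993) and -1.73 (SE 0.22, adjusted p = 0.000849), and both calls were lost without DIV7 (adjusted p = 0.242 and 0.124). In neurons Dusp1, a phosphatase that shuts down MAP kinases, counted 41.8 and 85.4, 52.3 and 159, and 96.8 and 152 CPM (-1.10, SE 0.18, adjusted p = 0.0248). The rise of Fos and Nr4a1 from DIV3 to DIV7 was seen in both replicates.

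Inside microglia or macrophages the 4 genes that passed were Jund, Dapk3, Snx20 and Gclm. Snx20, a sorting nexin of blood cells, counted 91.1 and 11.9, 71.2 and 14.0, and 59.0 and 10.8 CPM (log2 difference 2.54, SE 0.26, edgeR adjusted p = 0.0418). Gclm, a subunit of the enzyme that starts glutathione synthesis, counted 411 and 94.0, 420.2 and 58.0, and 135 and 32.9 CPM (2.34, SE 0.25, adjusted p = 0.0449). In both, every library of replicate 1 was higher. Without DIV5 edgeR called no gene in this lineage, and these 4 had adjusted p-values of 0.646 to 0.678.

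Homeostatic genes of microglia tended to stand lower in replicate 1 within the lineage as well, although none passed. Of 16 tested, 9 were higher in replicate 2 on all 3 days and 1 in replicate 1, against 15% and 15.8% of all genes of the lineage, with a median log2 difference of -0.46. Cx3cr1, the fractalkine receptor, counted 155 and 1040 CPM on DIV3, 682 and 1059 CPM on DIV5, and 908 and 1114 CPM on DIV7 (log2 difference -1.18, SE 0.47, edgeR adjusted p = 0.568). Apoe, the lipid carrier of activated microglia, rose with day on both sides and counted 2921 and 8428, 7104 and 15050, and 21190 and 43480 CPM (-1.22, SE 0.15, adjusted p = 0.0819). The lineage pooled a cluster led by Saa3 and Cd52 with a cluster led by Apoc1 and C1qc. On DIV7 these held 46 and 56 cells in replicate 1, and 29 and 203 cells in replicate 2. On DIV3 astroglial markers in microglia stood at 17.7% of the astroglial level in replicate 1 and 1.26% in replicate 2. The part of this mix and of astroglial RNA in the values above was not tested.

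Inflammatory genes of microglia changed order between days. Il1b, an inflammasome-processed cytokine, counted 144 and 3.96 CPM on DIV3, 5.99 and 45.1 CPM on DIV5, and 5.31 and 21.7 CPM on DIV7. Tnf counted 162 and 38.6, 29.2 and 85.7, and 65.5 and 138 CPM. Both were higher in replicate 1 on DIV3 and in replicate 2 afterwards. Spp1, which encodes osteopontin, was higher in replicate 2 on DIV3 and DIV7 and in replicate 1 on DIV5, at 36.4 and 1073, 637 and 123, and 442 and 1298 CPM. Astroglial markers in microglia were higher in replicate 1 on each day. Their median level was 17.7% of the astroglial level on DIV3 in replicate 1 and 1.26% in replicate 2, 8.31% and 1.88% on DIV5, and 2.68% and 1.69% on DIV7. Lcn2 in microglia, at 252 CPM on DIV3, 88.4 on DIV5 and 58.5 on DIV7 in replicate 1, was 51.0% to 78.7% of the astroglial level, above that range. The part of astroglial RNA in the microglial values was not tested further.

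Some of the genes passing edgeR's test were called in several lineages, and most of these belonged to no list. The test called 119 genes in neurons, 280 in ciliated cells, 4 in microglia or macrophages and 121 in fibroblasts. Of them 88 were called in the same direction in at least 2 of these lineages, 66 higher in replicate 1 and 22 in replicate 2. Genes called in 1 direction in 1 lineage and in the other direction in another were not counted. The lineages come from the same libraries, so a call in several is not an independent repeat. Of these 88, 13 were interferon or antigen-presentation genes and 24 were in any list. At least 3 lineages called 31 genes, 27 of them higher in replicate 1. Jund and Dapk3 were called in all 4.

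Jund, an AP-1 subunit that is present before stimulation, counted 277 and 55.0 CPM in the whole-library sum on DIV3, 406 and 85.7 CPM on DIV5, and 591 and 160.0 CPM on DIV7 (log2 difference 2.15, SE 0.16, edgeR adjusted p = 0.066). It was thus opposite in direction to Fos and Nr4a1. In neurons it counted 416 and 138, 514 and 137, and 748 and 166 CPM (1.89, SE 0.15, adjusted p = 0.000928), and in fibroblasts 151 and 28.0, 241 and 59.4, and 418 and 93.1 CPM (2.20, SE 0.15, adjusted p = 0.000755).

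Dapk3, a kinase of the myosin light chain, counted 44.3 and 3.92, 37.1 and 3.29, and 24.9 and 5.04 CPM in the whole-library sums (log2 difference 3.10, SE 0.28, edgeR adjusted p = 0.066). Its log2 difference was 3.40 in neurons (SE 0.22, adjusted p = 0.000341), 3.52 in fibroblasts (SE 0.23, adjusted p = 0.000755), 2.01 in ciliated cells (SE 0.23, adjusted p = 0.000248) and 3.78 in microglia (SE 0.36, adjusted p = 0.0398). The 3 libraries of replicate 1 lay above the 3 of replicate 2 in each of these lineages and in the whole-library sums. Thinned to 5000 UMIs, 16.6% and 1.94% of astroglia had a Dapk3 UMI on DIV3, 14.5% and 1.27% on DIV5, and 12.5% and 2.20% on DIV7.

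Hras, the small GTPase, counted 219 and 51.6, 190.4 and 55.5, and 147 and 55.9 CPM in the whole-library sums (log2 difference 1.75, SE 0.18, edgeR adjusted p = 0.066). Gnas, the stimulatory G-protein subunit, counted 1180 and 322, 1145 and 338, and 817 and 372 CPM (1.59, SE 0.20, adjusted p = 0.0804). Both had a near-constant replicate 2 level and no overlap between the replicates. Yrdc, a tRNA-modifying enzyme, counted 105 and 20.9, 75.8 and 15.5, and 78.6 and 19.2 CPM in neurons (2.24, SE 0.15, adjusted p = 0.000341).

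**Figure D5:**
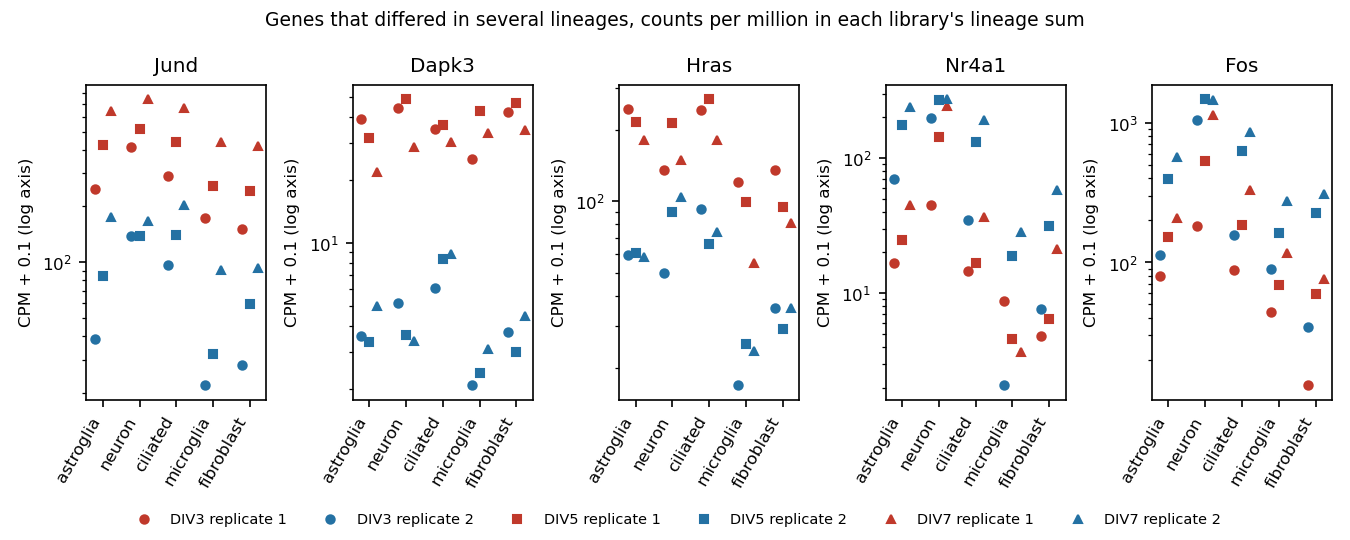
CPM (log axis, 0.1 added) of Jund, Dapk3, Hras, Nr4a1 and Fos in each lineage's summed UMIs (horizontal axis), 1 point per library, red for replicate 1 and blue for replicate 2, with circles for DIV3, squares for DIV5 and triangles for DIV7. Jund, Dapk3 and Hras are higher in replicate 1 and Fos higher in replicate 2 on each day in all 5 lineages; Nr4a1 follows Fos except in the microglia of DIV3.

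Near-identical copies can split reads between them, and some of these genes differed where their partner did not. Gm10076, a predicted copy of the ribosomal protein gene Rpl41, counted 236 and 592, 93.3 and 511, and 112 and 427 CPM in the whole-library sums (log2 difference -1.90, SE 0.24), while Rpl41 itself had a log2 difference of -0.07 (SE 0.21). Ftl1-ps1, a copy of the ferritin light chain, had 0.83 (SE 0.20) and Ftl1 0.03 (SE 0.18). Of the mitochondrial transcripts mt-Co2 had 0.86 (SE 0.15) and mt-Atp8 -0.73 (SE 0.13), although both come from the same long precursor. How reads were assigned to such copies was not tested, and these genes are reported as uncertain.

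The whole-library difference also went with transcript length, with a Spearman correlation across 6456 genes of -0.444 on DIV3, -0.0955 on DIV5 and -0.086 on DIV7, shorter transcripts being higher in replicate 1. With GC content it was 0.247 on DIV3, 0.0444 on DIV5 and -0.00347 on DIV7. The part of this in the DIV3 values of single genes was not tested.

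In fibroblasts or meningeal cells, genes outside the interferon list differed as well. Prrx2, a homeobox factor of mesenchyme, counted 479 and 68.9, 377 and 58.7, and 313 and 90.2 CPM (log2 difference 2.43, SE 0.21, edgeR adjusted p = 0.00278), with no overlap. Igfbp7, a secreted binder of insulin-like growth factors, counted 919 and 95.1, 663 and 99.6, and 812 and 288 CPM (2.51, SE 0.34, adjusted p = 0.0326), and lost its call without DIV3 (adjusted p = 0.318) or DIV5 (0.0662). Wnt4, a signalling ligand, was higher in replicate 2, at 20.3 and 93.1, 95.5 and 249, and 113 and 245 CPM (-1.56, SE 0.21, adjusted p = 0.0161). Ndufa4l2, a hypoxia-inducible mitochondrial protein, was likewise higher in replicate 2, at 0.847 and 2.79, 7.11 and 58.4, and 11.6 and 124 CPM (-2.94, SE 0.28, adjusted p = 0.00389).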

How the data were processed

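The authors deposited, for each library, raw UMI counts of every gene in every barcode. The submitters' processing notes name Cell Ranger 4.0.0 and the build mm9, and software 3.0.2 wrote the matrices, per the file headers. How the counts treat multi-mapping reads is not given in the sources used here. The filter kept cells with 500 or more genes and 10% or less mitochondrial UMIs, and UMIs were summed per library and per lineage (at least 20 cells in each library, which left out mural, oligodendrocyte and smaller lineages). Lineages came from 1 Leiden clustering of the 6 libraries (scanpy 1.11.5, leidenalg 0.10.2, 2000 variable genes, 30 components, resolution 1) and marker lists; the limits for naming a cluster were set after the clusters were seen.

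edgeR 4.0.16 in R 4.3.3 tested the sums (quasi-likelihood, TMM scaling, filterByExpr, day as a block, 2 residual degrees of freedom, Benjamini-Hochberg adjustment over all genes tested, threshold 0.05); log2 differences are replicate 1 minus replicate 2 and the SE is the log2 difference over the root of F. DESeq2 1.42.0 was an alternative. Named genes are, by rule, those with the largest log2 differences among the called (at least 20 CPM, same direction on all days, no predicted, ribosomal or mitochondrial genes), up to 4 members of each list with the smallest p, and a fixed set of glial, interferon and sex-linked genes; others, such as those called in most lineages, copies and some role-bearing list members, were picked after their values were seen. The groups compared, the gene lists and the named genes were chosen with earlier results of these data known. Total UMIs per library ran from 38735834 to 114119537. The alternatives were other scaling, no filter, no day block, a stricter cell filter, thinning to 5000 UMIs a cell, removal of top doublet scores (836 barcodes), lineages from each library alone, and leaving out each day. Binomial intervals are exact (Clopper-Pearson, 95%) and cover counting error only. The test was run on simulated counts before use.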

Additional observations from a re-analysis of the deposited data

Results flagged for a closer look

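Slc7a11, the cystine transporter that feeds glutathione synthesis, was the 1 gene whose replicate difference differed between astroglia and microglia or macrophages by the interaction test: the difference in astroglia minus that in microglia was -3.95 on the log2 scale (edgeR adjusted p = 0.0119), and without DIV5 it was -4.02 with an adjusted p of 0.297. It counted 105 and 5.94 CPM in microglia of DIV3 replicates 1 and 2, 39.7 and 16.3 CPM on DIV5, and 30.7 and 5.61 CPM on DIV7, against 12.8 and 5.03, 5.96 and 33.2, and 4.98 and 22.1 CPM in astroglia.

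Among the named genes, 3 moved one way on all 3 days in astroglia and the other way on all 3 days in another lineage, and these differences were not tested beyond the interaction fits. Vim was higher in replicate 1 astroglia and had a log2 difference of -0.0719 in neurons. Gja1 was lower in replicate 1 astroglia and had 1.03 in microglia or macrophages. Spp1 was higher in replicate 1 astroglia and had -1.34 in neurons.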

How the results depend on the processing

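Of 1292 recomputed values of 110 gene results, 1038 kept their direction and their side of the threshold, 66 lost a call, 159 gained one and 29 changed direction. Without a day block 36 of 109 lost their call. The cause of these changes was not tested, except that a fit without a day has 4 libraries and fewer degrees of freedom. The smallest permutation p over 3 days is 0.25, and lineages with few cells limit what can be called.

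Genes called in the whole-library sums, 0 in the main test, were 996 with DESeq2, 1 with total-count scaling, 364 without a low-count filter, 5 with the stricter cell filter, 28 after thinning and 0 to 197 leaving out a day (197 without DIV7). In astroglia, also 0, they were 1170, 5, 260, 127 and 8 in the same settings, 3 without top doublet scores and 6 to 5097 leaving out a day. In neurons (119) they were 199 with DESeq2, 874 without a filter, 2 without the block, 895 with the stricter filter, 202 after thinning, 10 with lineages from each library alone and 220 to 739 leaving out a day. In ciliated cells (280) they were 160 with DESeq2, 650 without a filter, 0 without the block and 26 to 1396 leaving out a day. In microglia or macrophages (4) they were 49 with DESeq2, 279 without a filter, 2 without the block, 10 after thinning and 0 to 242 leaving out a day. In fibroblasts (121) they were 200 with DESeq2, 430 without a filter, 1 without the block, 63 with lineages from each library alone and 88 to 993 leaving out a day. The interaction counts leaving out a day were 0 to 324 (neurons), 0 to 583 (ciliated) and 0 to 72 (microglia), the largest without DIV3, DIV3 and DIV7. The stricter filter could not be run on ciliated cells, with 10 cells in DIV3 replicate 2.

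Direction changed as follows. The share differences were 5.04 points for astroglia and 2.87 for fibroblasts with the stricter filter, and -1.40 for mural cells with lineages from each library alone; leaving out a day they ran from -6.11 to 1.55 for astroglia and from -2.13 to 0.105 for fibroblasts. Xist was -0.0378 without the block. Cxcl10 in astroglia was 0.0555 with total-count scaling, 0.0374 without a filter, 0.103 without the block, 0.00812 without top doublet scores, 0.405 with the stricter filter and 0.0278 with lineages from each library alone. Ccl5 in astroglia was 0.00238 after thinning. C1ql3 in astroglia was 0.0391 with total-count scaling, 0.0165 without a filter, 0.152 without the block and 0.0592 after thinning. In microglia Il1b was 1.04 without the block and 0.276 after thinning, and Cxcl10 0.0904 without the block. Leaving out a day, the log2 difference ran from -0.273 to 0.683 for Xist, and in astroglia from -0.421 to 1.43 for Ifit3, -1.29 to 0.0362 for Serpina3n, -0.675 to 0.769 for Cxcl10, -0.589 to 0.137 for Ccl5, -0.281 to 0.418 for C1ql3 and -1.32 to 0.218 for Apoe. In microglia it ran from -3.11 to 0.386 for Spp1, -2.47 to 1.34 for Il1b, -1.29 to 0.439 for Tnf and -3.77 to 0.321 for Cxcl10.

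No paired analysis was possible by replicate number because that number is itself what is compared. The libraries are paired by day instead: day is the block in edgeR's main test, and the permutation test of shares flips signs within days.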

Other observations

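A few predicted genes marked single libraries; they were chosen after their values were seen. Gm10036, which shares most of its sequence with a ribosomal protein gene, counted 133 CPM in the whole-library sum of DIV5 replicate 2 and 34.3 CPM in DIV7 replicate 2, against 0.38 to 1.17 CPM in the other 4 libraries. Gm13305 counted 37.2 CPM in DIV5 replicate 1 and 0.702 to 1.59 CPM elsewhere, and Gm10320 41.4 CPM there and 0.179 to 0.656 CPM elsewhere. Pawr, a pro-apoptotic regulator, was higher in replicate 1 on each day, at 30.9 and 1.42, 12.9 and 0.648, and 8.92 and 1.74 CPM (log2 difference 3.69, SE 0.46, edgeR adjusted p = 0.0804).

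In astroglia 2 genes outside the lists came nearest to the threshold, both higher in replicate 2. Tmem100, a small membrane protein of BMP-responsive cells, counted 31.2 and 136, 43.2 and 232, and 32.9 and 174 CPM (log2 difference -2.32, SE 0.14, edgeR adjusted p = 0.0528). Grin2c, the glutamate receptor subunit found in astrocytes, counted 0.356 and 2.44, 3.20 and 19.7, and 4.52 and 28.7 CPM (-2.67, SE 0.18, adjusted p = 0.0528). In neurons the macrophage lysozyme gene Lyz2 passed higher in replicate 2 (3.00 and 6.49, 7.92 and 15.8, 14.1 and 77.1 CPM; -1.57, SE 0.29, edgeR adjusted p = 0.0426). That call was lost without DIV3 (adjusted p = 0.0801), with the stricter cell filter (0.0631), after thinning (0.0541), with lineages from each library alone (0.203) and without the day block (0.861). Lyz2 was higher on the side where microglia made up the larger share of cells; microglia themselves held 6046 to 16500 CPM of it, and the part of free microglial RNA was not tested.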
